A study of Rattus norvegicus with 35 samples.

Results

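The change in RNA levels between 1 h and 12 h of cyclic mechanical stretch was examined in neonatal rat ventricular myocytes (NRVMs), by setting myocytes stretched for 12 h directly against myocytes stretched for 1 h. The comparison used 10 of the 35 arrays of the series, 5 biological replicates at 12 h and 5 at 1 h. All cells were primary cultures from ventricles of Sprague-Dawley rats 2 to 4 days old, enriched for myocytes by pre-plating, grown on flexible collagen I-coated plates and kept in serum-free medium. Stretch was started at different times and ended together, so both groups had the same time in culture, and the cells of the 1 h group had lain unstretched for longer before it began. Unstretched myocytes and myocytes stretched for 4 h, 5 arrays each, came from the same set of experiments. Their levels are given for orientation. These arrays had no weight in the contrast itself, but they entered the estimate of the spread between replicates on which its test rests. RNA was read on the Affymetrix Rat Genome 230 2.0 array, where several short probes together report on a transcript as a probe set, and a brighter intensity stands for more RNA.

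Stretch loads the membrane, the cell contacts and the sarcomeres of a cardiac myocyte, and mitogen-activated protein kinases and the transcription factor SRF are among the first to respond. Immediate early genes are transcribed within minutes of such a signal without new protein being made, and their RNAs decay quickly. Later layers of a stress response include genes driven by Nrf2, a transcription factor that its partner Keap1 marks for breakdown until oxidants or electrophiles interrupt this, and whose targets make glutathione, reduce quinones and aldehydes and break down heme. The contrast asks which of these RNAs stood higher or lower late in stretch than early in it.

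After 12 h of stretch the RNAs of immediate early transcription factors, of the EGF receptor inhibitor Errfi1 and of the angiotensin II receptor Agtr1a were lower than after 1 h, by up to 6.63-fold when each gene was read by its brightest probe set. The RNAs of Nrf2 target genes were higher, led by the cystine transporter Slc7a11 at 4.87-fold, and those of ribosome biogenesis genes were higher by smaller amounts. For each of 14217 genes, the brightest probe set that reads this gene alone was used. In limma, with Benjamini-Hochberg adjustment over all 31042 probe sets, 1881 genes were higher at 12 h than at 1 h at an adjusted p under 0.05 (13.2% of genes) and 1855 were lower (13.0%). With a fold change of at least 1.5 as well, 82 genes were higher (0.577%) and 179 lower (1.26%), and at 2-fold the counts were 14 (0.0985%) and 41 (0.288%). The intensities of the 5 arrays at 12 h and the 5 at 1 h did not overlap for 259 of the 261 genes past 1.5-fold (1.84%). Over all genes 11.5% lay higher without overlap and 11.4% lower. The 261 genes were picked on these same arrays, so their separation is no separate evidence. The 15 largest differences in each direction named below were picked for lack of overlap as well. The median difference over all genes was -0.006 on the log2 scale, a value that the normalization of the arrays holds near 0. Counts for the gene lists below are to be read against the shares of all genes, 13.2% higher and 13.0% lower. Over all probe sets 6628 passed the test (21.4%), 3523 higher and 3105 lower, of which 237 (0.763%) and 318 (1.02%) reached 1.5-fold.

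**Figure D1:**
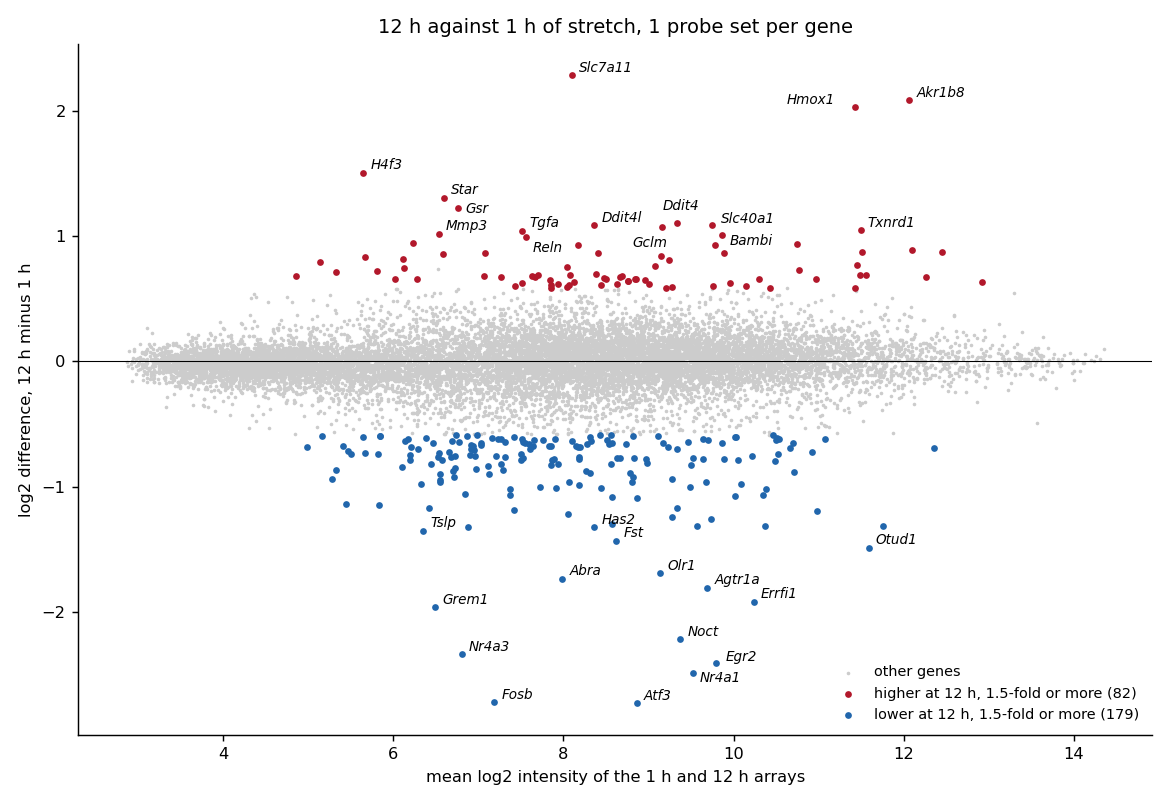
Log2 difference between 12 h and 1 h of stretch (vertical axis) against the mean log2 intensity of the 1 h and 12 h arrays (horizontal axis), 1 point per gene. The 82 genes higher at 12 h by at least 1.5-fold are in red and the 179 lower in blue, and the 15 largest differences in each direction carry their names, from Slc7a11 at 2.28 to Atf3 at -2.73.

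Median intensities were 88.7 to 91.1 at 12 h and 88.8 to 91.6 at 1 h, after a normalization that makes arrays alike in level. Log2 values correlated at 0.996 to 0.9983 between arrays of a group and at 0.9918 to 0.9952 between a 12 h and a 1 h array. The residual SD between replicates had a median of 0.114 (log2), and precision is limited by the 5 arrays in each group. The cells carried the markers that their label calls for. The troponin T gene Tnnt2 had a mean log2 intensity of 14.12 at 12 h and 14.13 at 1 h, and the ventricular myosin light chain gene Myl2 had 14.24 at both.

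Among the immediate early transcription factors, 23 of 30 measured genes were lower at 12 h than at 1 h and 1 was higher, with a median log2 difference of -0.49 against -0.006 over all genes, and 13 of the 23 were lower by at least 1.5-fold. Atf3, a stress-induced repressor of the ATF/CREB family, had intensities of 169, 189, 179, 205 and 166 on the 12 h arrays, against 1186, 1259, 1054, 1173 and 1342 on the 1 h arrays. Every 12 h array was far below every 1 h array. The difference was 6.63-fold (log2 -2.73, SE 0.073, adjusted p = 2.02e-16). Fosb, a partner of Jun proteins in the AP-1 factor, had 53.4, 52.4, 60.1, 63.6 and 54.8 at 12 h, against 373, 373, 356, 425 and 344 at 1 h, with no overlap. It was 6.58-fold lower (log2 -2.72, SE 0.10, adjusted p = 7.02e-14). Fos, the best known member of that family, differed less, by -0.81, at 345, 391, 384, 393 and 401 at 12 h against 671, 675, 671, 684 and 655 at 1 h. A second, dimmer probe set of Fos gave a difference of 0.01 that did not pass the test.

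The orphan nuclear receptors of the NR4A family, which bind DNA without a known ligand, were all lower at 12 h. Nr4a1 read 295, 322, 318, 293 and 324 on the 12 h arrays, against 1678, 1785, 1651, 1926 and 1650 on the 1 h arrays. The groups were well apart, and the difference of -2.48 had an SE of 0.051 (adjusted p = 2.9e-18). Nr4a3 differed by -2.34 (SE 0.11) by its brightest probe set and by -3.69 and -0.27 by its other probe sets, and Nr4a2 by -0.67. Of the zinc finger factors of the EGR family, Egr2 had 395, 386, 377, 381 and 397 at 12 h, against 2050, 2075, 2031, 2147 and 1949 at 1 h, which is 5.29-fold lower (log2 -2.40, SE 0.045, adjusted p = 7.06e-19). Replicates of Egr2 differed by little beside the distance between the groups. Its second, dimmer probe set gave a smaller difference of -1.17. Egr1 differed by -1.31 (SE 0.053, adjusted p = 3.29e-13), whereas Egr3 at -0.14 (adjusted p = 0.336) and Egr4 at 0.03 did not pass the test.

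Smaller differences were seen for Arc, which in neurons acts at synapses (-0.90), Ier2 (-0.75), the AP-1 member Junb (-0.68) and the Krüppel-like factor Klf10 (-0.58). Myc, a driver of growth and of ribosome production, was lower by only -0.25 (adjusted p = 0.00296), and its mean log2 intensity was 8.22 in unstretched cells, 9.97 at 1 h, 9.65 at 4 h and 9.71 at 12 h, so it stood well above the unstretched cells at 12 h too. The small Maf protein gene Maff was the member that was higher, by 0.28 (adjusted p = 0.036), with overlapping arrays, and this call was lost under 8 of the other settings and left-out arrays tried. Jund at 0.02 and Klf2 at 0.03 did not pass the test.

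**Figure D2:**
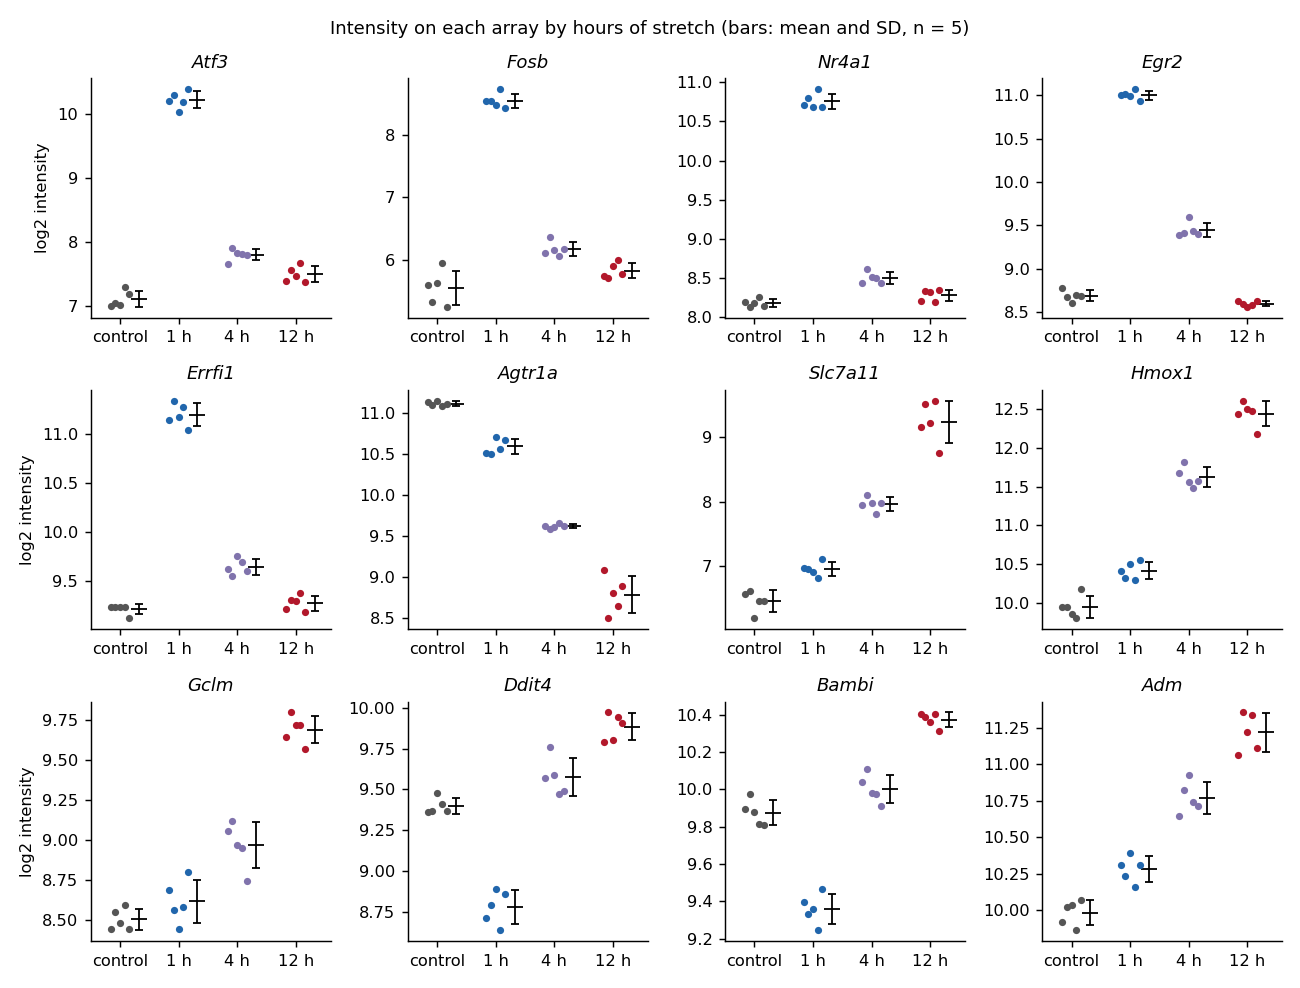
Log2 intensity of 12 genes on each of 20 arrays (points), for unstretched control myocytes and after 1, 4 and 12 h of stretch, with the mean and SD of each group (n = 5). Atf3, Fosb, Nr4a1, Egr2 and Errfi1 were high at 1 h and back near the control at 12 h, Agtr1a was lower at each later time, and Slc7a11, Hmox1, Gclm and Adm were higher at each later time, while Ddit4 and Bambi were below the control at 1 h and above it at 12 h.

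Stretches of promoter are shown for 2 members of the list picked because they carry the binding sequence of SRF, the CArG box. They are the 250 bases before the annotated start of the gene in RefSeq (rat build GRCr8), 5′ to 3′ along the gene, with CArG boxes in capitals. Egr1 lies on chromosome 18 (bases 26736828 to 26737077, plus strand) and has 2 such boxes, and Egr2 on chromosome 20 (bases 21054442 to 21054691, minus strand) has 1.
Egr1: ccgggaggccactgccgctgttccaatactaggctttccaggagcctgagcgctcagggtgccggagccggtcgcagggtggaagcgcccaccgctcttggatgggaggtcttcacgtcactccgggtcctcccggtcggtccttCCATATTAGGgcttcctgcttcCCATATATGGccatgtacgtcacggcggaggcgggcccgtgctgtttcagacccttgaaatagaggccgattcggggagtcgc
Egr2: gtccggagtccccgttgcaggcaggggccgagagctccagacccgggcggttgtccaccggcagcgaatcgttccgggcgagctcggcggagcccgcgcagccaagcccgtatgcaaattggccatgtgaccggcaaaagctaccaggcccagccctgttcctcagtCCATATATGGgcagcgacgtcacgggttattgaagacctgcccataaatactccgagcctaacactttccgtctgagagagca
Of the 21 immediate early genes with a promoter in the table, 23.8% held a CArG box on either strand in these 250 bases, 38.1% held the EGR sequence GCGNGGGCG and 19.0% the cyclic AMP response sequence TGACGTCA, against 1.2%, 8.1% and 2.6% of 11733 promoters. The antioxidant response core TGACNNNGC was held by 23.8% (12.3% of all promoters), the E-box CACGTG by 9.5% (7.8%) and the AP-1 sequence TGANTCA by 0.0% (4.8%). Of all genes lower by at least 1.5-fold, 132 of 179 had a promoter in the table, and 3.0% of these held a CArG box, 6.8% the EGR sequence and 4.5% the cyclic AMP response sequence. These are matches of letters in 1 window, and no binding was measured.

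Genes of the actin cytoskeleton and of SRF and its cofactors were lower at 12 h in 13 of 28 cases and higher in 1. Their median log2 difference was -0.14. The largest difference was in Abra (STARS), a muscle protein that binds actin and releases SRF cofactors to the nucleus. It had 145, 128, 139, 140 and 145 at 12 h, against 482, 488, 402, 470 and 478 at 1 h, a difference of -1.73 (SE 0.067, adjusted p = 1.51e-13) with no overlap. Srf itself was lower by -0.78, at mean log2 intensities of 9.50 at 12 h and 10.28 at 1 h, where unstretched cells had 9.82. Smooth muscle actin Acta2 (-0.56), the actin-binding protein gene Lima1 (-0.50), transgelin Tagln (-0.34) and vinculin Vcl (-0.32) were lower as well. Mrtfa, a cofactor of SRF, was higher by 0.22, with overlapping arrays. Of 15 measured targets of YAP, a transcription cofactor that responds to cell tension, 7 were lower and 0 higher (median -0.12). The connective tissue growth factor gene Ccn2 had 9928, 10249, 10715, 10304 and 9994 at 12 h, against 14863, 14068, 13751, 14681 and 14438 at 1 h, and differed by -0.49. Nuak2, a kinase of the AMPK family, differed by -0.82, and Ankrd1, at -0.07 (adjusted p = 0.22), did not pass the test.

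Ligands of the EGF receptor and proteins that dampen its signal had the next lowest median among the pathway lists, -0.25, with 12 of 19 members lower and 2 higher. Errfi1 (Mig-6), a cytosolic inhibitor of the receptor, had 593, 634, 629, 666 and 584 on the 12 h arrays, against 2260, 2595, 2318, 2492 and 2111 on the 1 h arrays. It was 3.78-fold lower (log2 -1.92, SE 0.056, adjusted p = 9.37e-16), and the groups were far apart. The ligand genes Ereg (-1.08) and Hbegf (-0.96) and the ERK phosphatase gene Dusp6 (-0.69) were lower too. They still stood above the unstretched cells at 12 h, at mean log2 intensities of 8.03 against 6.58 for Ereg. For Hbegf these were 8.33 against 7.71, and for Dusp6 10.32 against 9.73. Tgfa, which codes for another ligand of the same receptor, went the other way. Its intensities were 230, 286, 284, 279 and 241 at 12 h, against 131, 118, 131, 129 and 131 at 1 h, 2.06-fold higher (log2 1.04, SE 0.084, adjusted p = 1.47e-08), and a second probe set gave 1.02. The phosphatase gene Dusp2 was also higher, by 0.50.

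Of the vasoactive peptides and their receptors, 8 of 25 were lower at 12 h and 4 higher (median -0.11). Agtr1a, the main receptor for angiotensin II in the heart, had 543, 362, 449, 403 and 477 at 12 h, against 1468, 1446, 1680, 1515 and 1637 at 1 h. All 12 h arrays lay below all 1 h arrays, and the difference was 3.50-fold (log2 -1.81, SE 0.075, adjusted p = 5.09e-13). Its second probe set gave -1.63. Unlike the immediate early genes, Agtr1a was already below the unstretched cells at 1 h, at mean log2 intensities of 11.12 in unstretched cells, 10.59 at 1 h, 9.62 at 4 h and 8.79 at 12 h. The bradykinin receptor gene Bdkrb1 (-1.13), the receptor partner gene Ramp1 (-0.59) and the endothelin gene Edn1 (-0.52) were lower.

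Adm, which codes for the vasodilating peptide adrenomedullin, had 2141, 2616, 2384, 2587 and 2207 at 12 h, against 1270, 1206, 1345, 1143 and 1268 at 1 h. It was 1.91-fold higher (log2 0.93, SE 0.066, adjusted p = 1.87e-09) with no overlap. Calcrl, the receptor that adrenomedullin uses together with a RAMP partner, was higher by 0.49. The natriuretic peptide genes moved little between these times. Nppb (BNP) had 12488, 13178, 13198, 13499 and 13252 at 12 h, against 15340, 15684, 15029, 15165 and 14884 at 1 h, and was lower by -0.21 (adjusted p = 0.000438). Nppa (ANP) differed by 0.02 (95% interval -0.05 to 0.09, adjusted p = 0.779), with overlapping arrays. Of 14 measured genes that the study also followed by other RNA assays, 8 were lower at 12 h than at 1 h, 3 were higher (Adm, Spp1 and Tgfb1) and 3 did not pass (median -0.17). The study measured some of them as known markers of the stretch response and describes the assays as a check of selected array results. The list is therefore no independent evidence of its direction.

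Among 28 genes of NF-kB signaling and inflammation, 13 were lower and 4 higher (median -0.15). Ptgs2 (COX-2), the inducible enzyme of prostaglandin synthesis, had 688, 944, 854, 821 and 897 at 12 h, against 2270, 2025, 2036, 2074 and 2020 at 1 h, and was 2.49-fold lower (log2 -1.32, SE 0.083, adjusted p = 4.09e-10). No array of one group reached into the other. At 12 h Ptgs2 was still above the unstretched cells, at mean log2 intensities of 9.71 against 8.63. Olr1, a scavenger receptor for oxidized LDL, was lower by -1.69, the ubiquitin-editing NF-kB inhibitor Tnfaip3 (A20) by -1.26, the chemokine Ccl20 by -1.22 and the adhesion molecule Icam1 by -0.74. Ccl20 was not raised at 1 h, with mean log2 intensities of 8.76 in unstretched cells, 8.67 at 1 h and 7.45 at 12 h. Cxcl12 (mean log2 8.99 at 12 h and 9.99 at 1 h) and Vcam1 (-0.98) were lower too, and were already below the unstretched cells at 1 h. Vcam1 had mean log2 intensities of 11.09 in unstretched cells, 10.57 at 1 h, 10.17 at 4 h and 9.59 at 12 h. The neutrophil-attracting chemokine Cxcl1 was higher by 0.22 and Cxcl10 by 0.27, both with overlapping arrays. Il6 differed by -0.43 (adjusted p = 0.0307), and its arrays overlapped. Of 31 interferon-stimulated and antigen presentation genes, 6 were lower and 3 higher (median -0.12), among them Rig1, a sensor of viral RNA (-0.55), and the transcription factor gene Irf1 (0.48).

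Regulators of BMP and activin signaling showed large differences in both directions, with 9 of 27 genes of the TGF-beta family lower, 6 higher and a median of -0.05. Grem1 (gremlin), a secreted BMP antagonist, had 49.5, 39.0, 45.4, 40.7 and 54.3 at 12 h, against 183, 180, 170, 167 and 186 at 1 h. It was 3.89-fold lower (log2 -1.96, SE 0.089, adjusted p = 1.88e-12), with the groups apart. Fst (follistatin), which binds activin, was lower by -1.43, and Inhba, the subunit gene of activin A, by -1.07. At 12 h Inhba was still above the unstretched cells (mean log2 9.82 against 9.14), while Fst was level with them (7.91 in both). Bambi, a decoy receptor that dampens TGF-beta and BMP signals, had 1353, 1338, 1316, 1355 and 1270 at 12 h, against 675, 644, 657, 607 and 706 at 1 h, 2.02-fold higher (log2 1.01, SE 0.048, adjusted p = 3.61e-12). Its replicates were close and the groups did not overlap. Id2, a BMP-responsive inhibitor of basic helix-loop-helix factors, was higher by 0.93, and the stress cytokine Gdf15 by 0.86. For Id2 the mean log2 intensity was 10.279 in unstretched cells, 9.316 at 1 h and 10.245 at 12 h, so it did not exceed the unstretched level.

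The Nrf2 targets held the highest share of genes that were higher at 12 h apart from ribosome biogenesis, 26 of 33 measured, with 2 lower and a median log2 difference of 0.56, and 16 of the 26 were higher by at least 1.5-fold. Slc7a11, the transporter that imports cystine for glutathione synthesis, had 569, 733, 596, 755 and 433 at 12 h, against 126, 125, 120, 114 and 139 at 1 h. The lowest 12 h array was several times above the highest 1 h array (log2 difference 2.28, SE 0.11, adjusted p = 8.43e-12). Hmox1, which breaks down heme, had 5547, 6237, 5796, 5720 and 4649 at 12 h, against 1361, 1271, 1447, 1255 and 1503 at 1 h. It was 4.08-fold higher (log2 2.03, SE 0.082, adjusted p = 3.29e-13). The aldo-keto reductase gene Akr1b8, whose product reduces aldehydes, read 7971, 9365, 9342, 9686 and 7879 at 12 h, against 2198, 2075, 1990, 2041 and 2103 at 1 h (log2 2.08, SE 0.082, adjusted p = 1.91e-13). In all 3 genes the groups were well separated.

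Genes of glutathione synthesis and reduction were higher. Gclm, the modifier subunit of the enzyme that starts glutathione synthesis, had 803, 891, 845, 843 and 760 at 12 h, against 413, 379, 349, 384 and 447 at 1 h, 2.11-fold higher (log2 1.07, SE 0.069, adjusted p = 5.49e-10). Its catalytic partner Gclc was higher by 0.59 and the glutathione reductase gene Gsr by 1.22 (SE 0.11, adjusted p = 7.45e-08). Pgd of the pentose phosphate pathway and the malic enzyme Me1, which supply NADPH, were higher by 0.87 and 0.40, and Tkt (0.69) and Taldo1 (0.56), of the non-oxidative branch of that pathway, were higher too. The thioredoxin reductase gene Txnrd1 was higher by 1.05, and by 1.57 on its second probe set, the selective autophagy receptor Sqstm1 (p62) by 0.89, the quinone reductase Nqo1 by 0.63 and thioredoxin Txn1 by 0.20. Srxn1, which repairs oxidized peroxiredoxins, differed by only 0.31 (adjusted p = 0.00421), and its mean log2 intensity was 9.75 in unstretched cells, 11.37 at 1 h, 11.25 at 4 h and 11.68 at 12 h, so most of its distance from the unstretched cells was there at 1 h. The flavin-containing monooxygenase gene Fmo1 (-0.71) and the UDP-glucose dehydrogenase gene Ugdh (-0.17) were the lower members.

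Nrf2 with a small Maf partner binds the antioxidant response element, whose core TGACNNNGC overlaps with the AP-1 sequence TGANTCA where its middle bases allow it. Promoters of 3 members that were higher are shown over the 250 bases before the start (RefSeq, GRCr8), picked because they hold a match to the core or to the AP-1 sequence, which is in capitals. The promoters of Cbr3 and Gsta4, also higher, held neither in this window. Gclm lies on chromosome 2 (bases 213031885 to 213032134, plus strand) and holds the core on the opposite strand, Srxn1 on chromosome 3 (bases 161064562 to 161064811, plus strand) holds the AP-1 sequence, and in Me1 on chromosome 8 (bases 96540245 to 96540494, minus strand) the capitals match both.
Gclm: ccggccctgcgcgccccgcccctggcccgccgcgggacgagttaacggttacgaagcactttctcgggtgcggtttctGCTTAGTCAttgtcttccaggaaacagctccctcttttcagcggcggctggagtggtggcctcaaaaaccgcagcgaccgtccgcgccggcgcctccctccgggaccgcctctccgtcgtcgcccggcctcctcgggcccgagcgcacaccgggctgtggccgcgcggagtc
Srxn1: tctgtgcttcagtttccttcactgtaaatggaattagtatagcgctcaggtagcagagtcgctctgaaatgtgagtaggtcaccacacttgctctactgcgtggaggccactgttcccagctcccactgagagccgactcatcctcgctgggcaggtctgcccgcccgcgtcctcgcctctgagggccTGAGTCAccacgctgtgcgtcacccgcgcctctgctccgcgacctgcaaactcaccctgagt
Me1: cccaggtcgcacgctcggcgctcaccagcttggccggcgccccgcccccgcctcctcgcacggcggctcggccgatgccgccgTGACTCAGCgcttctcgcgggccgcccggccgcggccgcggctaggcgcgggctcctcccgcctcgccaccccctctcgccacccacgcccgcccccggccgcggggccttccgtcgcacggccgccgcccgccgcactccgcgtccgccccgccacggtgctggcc
Of the 33 Nrf2 list genes with a promoter in the table, 18.2% held the core and 15.2% the AP-1 sequence on either strand, against 12.3% and 4.8% of 11733 promoters. The core was thus no more frequent here than among the immediate early genes given above, at 23.8%. Of the genes higher by at least 1.5-fold, 71 of 82 had a promoter there, and 15.5% held the core and 5.6% the AP-1 sequence. The shares among lower genes were 9.1% and 9.8%.

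**Figure D3:**
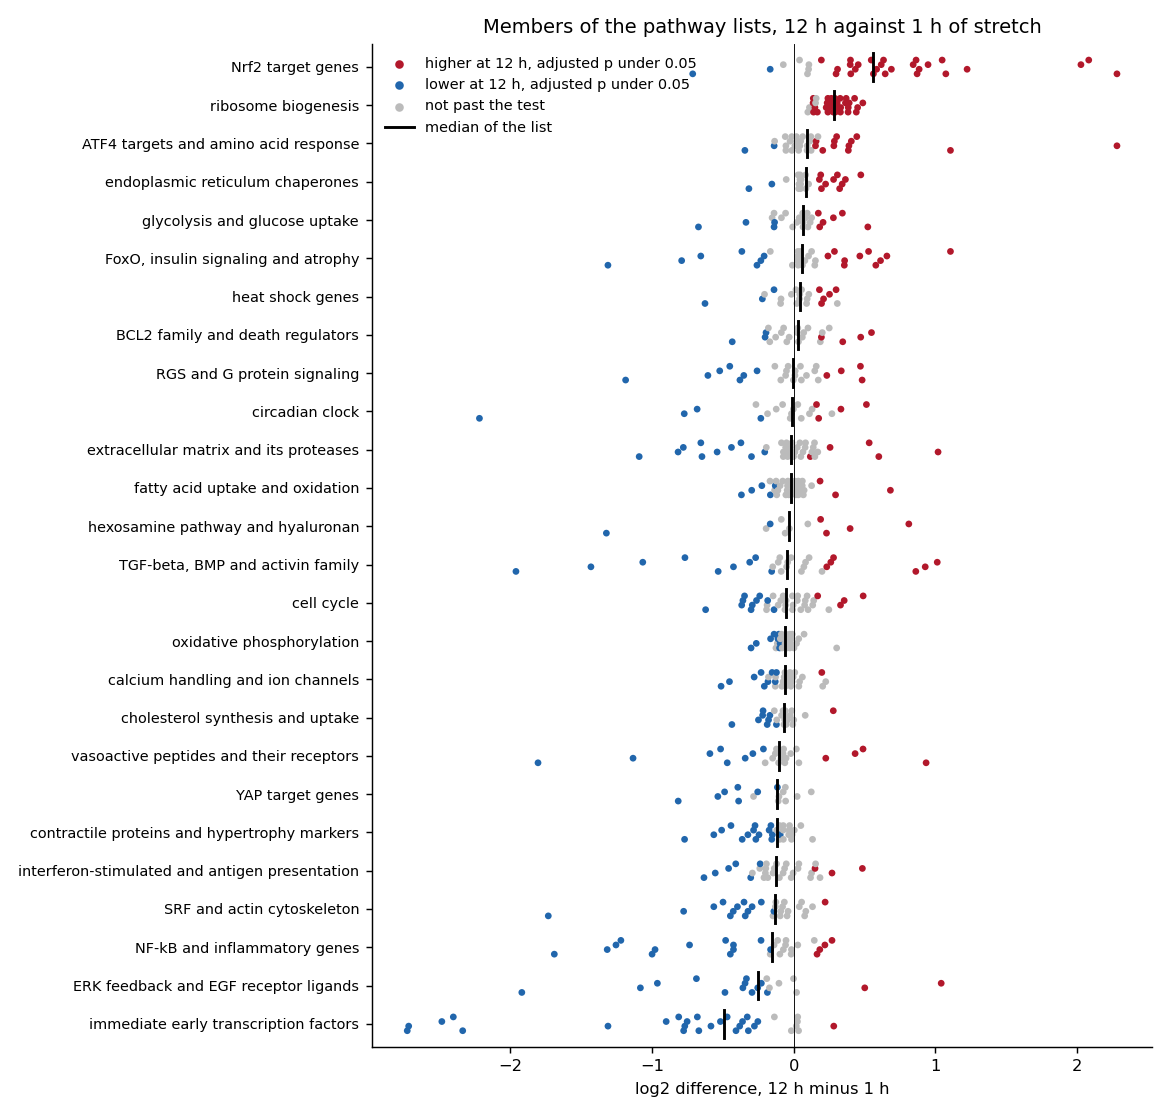
Log2 difference between 12 h and 1 h for every measured member of 26 pathway lists (points), sorted by the median of the list (black bars). Red and blue points passed the test as higher or lower at 12 h. Nrf2 target genes (median 0.56) and ribosome biogenesis genes (0.29) lie at the top, and the immediate early transcription factors (-0.49) at the bottom.

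Ribosome biogenesis genes were higher by small and similar amounts. At 12 h, 31 of 35 genes were higher than at 1 h and 0 were lower, with differences of 0.10 to 0.49, a median of 0.29, and none past 1.5-fold. Bop1, an assembly factor of the large ribosomal subunit, had 441, 412, 448, 433 and 424 at 12 h, against 301, 316, 299, 299 and 323 at 1 h, 1.40-fold higher (log2 0.49, SE 0.049, adjusted p = 2.96e-07) with no overlap. The RNA methyltransferase gene Nop2 (0.44), the helicase gene Ddx21 (0.39), the RNA polymerase I subunit gene Polr1b (0.38) and nucleolin Ncl (0.33) were higher to a similar degree. Of these, Ncl and Polr1b were also raised at 4 h. Ncl had mean log2 intensities of 11.68 in unstretched cells, 11.78 at 1 h, 12.00 at 4 h and 12.11 at 12 h. Polr1b had 7.61, 7.68, 8.23 and 8.07 in the same order, and so was highest at 4 h. Nop14 and Dkc1, at 0.15 and 0.16, and Gnl3 and Rrp1, at 0.11 and 0.10, did not pass the test.

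Genes that answer to growth factors and nutrients moved both ways. Of 32 genes of insulin and FoxO signaling, 10 were higher and 7 lower (median 0.06). Ddit4 (REDD1), an inhibitor of the growth kinase mTORC1, had 887, 1005, 893, 987 and 960 at 12 h, against 420, 442, 474, 398 and 465 at 1 h, 2.15-fold higher (log2 1.11, SE 0.059, adjusted p = 2.58e-11). Its groups were far apart, and its 1 h level was below the unstretched cells while its 12 h level was above. The related gene Ddit4l was higher by 1.09, Ccng2 by 0.66 and the PI3-kinase inhibitor Pik3ip1 by 0.61. Unlike Ddit4, Ccng2 and Pik3ip1 did not rise above the unstretched cells. Mean log2 intensities in unstretched cells, at 1 h and at 12 h were 9.26, 8.51 and 9.17 for Ccng2. For Pik3ip1 they were 8.58, 7.75 and 8.37. Igfbp3, which binds insulin-like growth factors in the medium, had 482, 416, 575, 531 and 431 at 12 h, against 1097, 1188, 1317, 1316 and 1101 at 1 h, a difference of -1.31 (SE 0.092, adjusted p = 1.83e-09) without overlap. Igf1 was lower by -0.79 and the insulin receptor substrate gene Irs2 by -0.66.

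Of 34 genes of the ATF4 and amino acid response, 12 were higher and 2 lower (median 0.10), led by Slc7a11 and Ddit4, which stand on other lists as well. The amino acid transporter genes Slc7a5 (0.45) and Slc1a4 (0.39) and the serine pathway genes Shmt2 (0.41) and Psph (0.39) were higher. Asns (-0.01) and Trib3 (0.12), which ATF4 is known to drive strongly, did not pass the test, and Atf4 itself differed by -0.14 (adjusted p = 0.0366). Chaperones of the endoplasmic reticulum were higher in 10 of 24 cases and lower in 2 (median 0.09), with Dnajb9 at 0.47 and Hsp90b1 at 0.37, while Hspa5 (BiP), at 0.09 (adjusted p = 0.125), did not pass. Among 21 heat shock genes, 5 were higher and 3 lower (median 0.04), with Hsp90ab1 at 0.30 and the small heat shock protein gene Hspb3 at -0.63.

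In glycolysis and glucose uptake, 6 of 25 genes were higher and 4 lower (median 0.07), with the phosphofructokinase gene Pfkl at 0.52, hexokinase Hk2 at 0.34 and the glucose transporter gene Slc2a3 at -0.67. Of 11 genes of the hexosamine pathway and hyaluronan, 4 were higher and 2 lower (median -0.03). Has2, which makes hyaluronan, had 190, 209, 219, 233 and 192 at 12 h, against 492, 566, 505, 531 and 510 at 1 h, and was 2.50-fold lower (log2 -1.32, SE 0.063, adjusted p = 4.65e-12), with no overlap. Oga, which removes O-linked N-acetylglucosamine from proteins, was higher by 0.81. In fatty acid uptake and oxidation, 3 of 34 genes were higher (8.8%) and 5 lower (14.7%), close to or below the shares of all genes (13.2% and 13.0%), with a median of -0.02. Among them were Acot1, a thioesterase, at 0.68 and lipoprotein lipase Lpl at -0.37. In oxidative phosphorylation, 8 of 29 were lower and 0 higher (median -0.06), none by more than -0.30, the value of the muscle form of a cytochrome oxidase subunit, Cox7a1. Of 24 genes of cholesterol synthesis and uptake, 8 were lower and 1 higher (median -0.07).

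Contractile and hypertrophy genes were lower in 15 of 29 cases and higher in 0, by small amounts (median -0.12). Myl7, the atrial myosin light chain, had 931, 827, 908, 851 and 921 at 12 h, against 1241, 1247, 1264, 1228 and 1332 at 1 h, a difference of -0.51 (SE 0.049, adjusted p = 2.05e-07) without overlap. Lmcd1, a cysteine-rich LIM domain protein, was lower by -0.77, but both times were above the unstretched cells, at mean log2 intensities of 8.91 in unstretched cells, 9.91 at 1 h, 10.30 at 4 h and 9.14 at 12 h. Myh6 (-0.15) and alpha-actinin Actn2 (-0.17) were lower, and Myh7 (-0.07), Tnnt2 (-0.02) and Ankrd1 (-0.07) did not pass the test. Of 30 genes of calcium handling and ion channels, 9 were lower and 1 higher (median -0.07), with the potassium channel genes Kcnd3 (-0.51) and Kcnq1 (-0.45) lowest. Of 25 RGS and G protein genes, 7 were lower and 4 higher (median -0.003). Rgs16, which shortens signals of Gi- and Gq-coupled receptors, differed by -1.19, and the small GTPase gene Rrad, which restrains L-type calcium channels, by 0.47.

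Of 38 genes of the extracellular matrix and its proteases, 10 were lower and 5 higher (median -0.02). The fibrillar collagen genes Col1a1 (0.05), Col1a2 (-0.00) and Col3a1 (-0.07) did not pass the test. The stromelysin gene Mmp3 was higher by 1.02 (SE 0.14, adjusted p = 1.52e-05), osteopontin Spp1 by 0.60 and tenascin-C Tnc by 0.53. The protease inhibitor gene Serpinb2 (-1.09), the aggrecanase gene Adamts9 (-0.82) and Thbs2 (-0.78) were lower. By mean log2 intensity, Serpinb2 was still above the unstretched cells at 12 h (8.315 against 6.682). Adamts9 (8.152 against 9.052) and Thbs2 (7.789 against 8.728) were below them. Of 36 cell cycle genes, 10 were lower and 4 higher (median -0.06), and the lower ones included the proliferation antigen Mki67 (-0.36), Top2a (-0.37), Ccnb2 (-0.35) and Cdk1 (-0.30). Of 20 clock genes, 4 were lower and 4 higher (median -0.009). Noct (nocturnin), a phosphatase of NADP whose gene is also induced acutely, read 306, 305, 303, 316 and 305 at 12 h, against 1496, 1493, 1348, 1434 and 1380 at 1 h (log2 -2.22, SE 0.057, adjusted p = 1.16e-16), and the groups were far apart. Per2 was lower by -0.68, and Nr1d1 (0.51) and Bmal1 (0.33) were higher. Of 23 genes of the BCL2 family and other death regulators, 4 were higher (17.4%) and 3 lower (13.0%), near the shares of all genes (13.2% and 13.0%), with a median of 0.03. Among them were Xiap at 0.55, Bid at 0.47 and Birc3 at -0.43.

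Among the 15 largest falls, Otud1 and Tslp were on none of these lists. Otud1, a deubiquitinase, differed by -1.49 and the cytokine gene Tslp by -1.35. Of the 15 largest rises, Star, which carries cholesterol into mitochondria for steroid synthesis, had 117, 168, 158, 212 and 124 at 12 h, against 57.2, 60.4, 62.4, 62.0 and 65.6 at 1 h (log2 1.31, SE 0.11, adjusted p = 2.52e-08), and 1.91 on a second probe set. Its 12 h arrays varied more than its 1 h arrays, and all lay above them. Slc40a1 (ferroportin), the iron exporter of cells, was higher by 1.09 (SE 0.068, adjusted p = 2.91e-10) and by 0.75 and 0.91 on 2 other probe sets. Reln, a secreted matrix protein best known from the brain, was higher by 0.99, but by only 0.43 on a second, dimmer probe set. H4f3, a histone H4 gene, had 75.4, 87.2, 45.4, 241 and 60.5 at 12 h, against 29.3, 29.7, 28.7, 27.5 and 34.1 at 1 h. A single 12 h array, replicate 4, stood far above the others. The log2 difference was 1.51 (SE 0.27, adjusted p = 0.000366), and 1.13 without that array. The H4 genes are near-identical copies, so which of them this probe set read is uncertain.

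A large difference was also seen in a probe set that has no gene in the annotation used. It had 157, 194, 170, 161 and 182 at 12 h, against 2272, 2161, 2090, 2259 and 2003 at 1 h. It was 12.5-fold lower (log2 -3.64, SE 0.079, adjusted p = 4.68e-18), and its mean log2 intensity was 7.51 in unstretched cells, 11.07 at 1 h, 8.37 at 4 h and 7.43 at 12 h. Over all 31042 probe sets, 1.02% passed the test as lower by at least 1.5-fold and 0.763% as higher. Among the 10216 with no gene or several, 106 were lower and 46 higher by these limits. The study's own gene lists name some of them. Btg2, an antiproliferative immediate early gene, was lower by -1.20 and the plasma membrane calcium pump gene Atp2b1 by -1.26, whereas the probe set annotated to Atp2b1 alone gave -0.02 and did not pass the test (adjusted p = 0.903). Probe sets that read several genes and that the study lists as Gsta1, a glutathione transferase, and Mt1, a metallothionein, were higher by 1.97 and 1.64. The probe sets that read Gsta1 and Mt1 alone gave 0.40 and 0.10, and the value of Mt1 did not pass the test, so the near-identical members of these families could not be told apart.

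The lower genes differed in where they stood relative to the unstretched cells. Of the 179 genes lower at 12 h than at 1 h by at least 1.5-fold, 67 (37.4%) had a 12 h mean nearer to the unstretched mean than their 1 h mean was, a share close to the 33.1% among all 14217 genes. For a lower gene this requires a 1 h mean above the unstretched mean. The other 112 were farther from it at 12 h, and 85 of them were already below it at 1 h. Cxcl13, which guides B cells, was one of these, at mean log2 intensities of 8.85 in unstretched cells, 7.54 at 1 h, 6.84 at 4 h and 6.22 at 12 h. Of the 82 higher genes, 10 (12.2%) were nearer to the unstretched mean at 12 h and 72 farther. The 4 h mean lay between the 1 h and 12 h means for 161 of the 179 lower genes (89.9%) and 73 of the 82 higher genes (89.0%), against 44.1% of all genes. Of the 15 largest falls, 12 were nearer to the unstretched cells at 12 h, with Grem1, Agtr1a and Tslp as the exceptions. Of the 15 largest rises, 13 were farther. These counts use the same 1 h and 12 h arrays as the choice of the genes and were not tested.

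**Figure D4:**
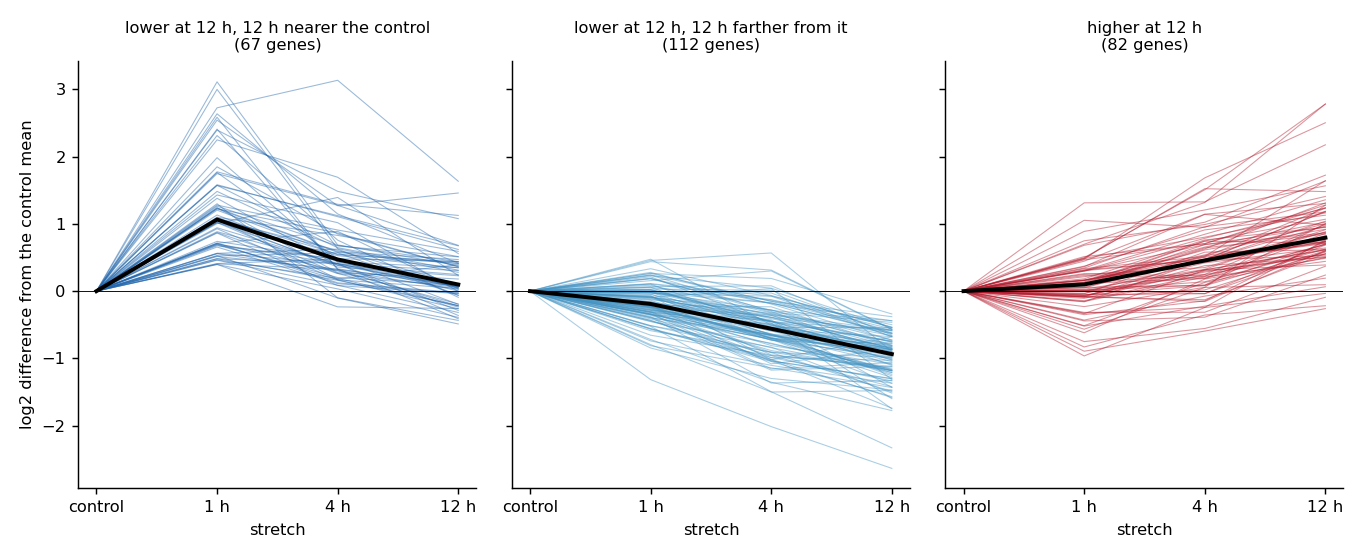
Mean log2 difference from the unstretched control at 1, 4 and 12 h of stretch (n = 5 arrays each) for genes that differed by at least 1.5-fold between 12 h and 1 h, 1 line per gene, with the median in black. By the way the groups were formed, the 67 lower genes nearer to the control at 12 h peaked at 1 h or 4 h, and the 112 others ended below it. Most of the 82 higher genes moved away above it.

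Among the 8 lists of cell type markers, the endothelial list had the lowest median and the highest share of lower genes. In these bulk cultures fewer cells of a type and less RNA per cell cannot be told apart. Of 13 endothelial markers, 7 were lower at 12 h and 0 higher (median -0.35), and their summed intensity was 2288 to 2703 at 12 h and 2838 to 3344 at 1 h, 0.808 of the 1 h mean. The VEGF receptor gene Flt1 was lower by -0.70 and the tight junction gene Cldn5 by -0.52, while Pecam1 (-0.23) and Vwf (-0.21) did not pass the test. Of 9 mesothelial and epicardial markers, 2 were lower (median -0.01), and the sum was 2652 to 2944 at 12 h and 3659 to 3925 at 1 h. That difference rested on Aldh1a2, a retinoic acid-making enzyme (-0.72), while the keratin genes Krt8 and Krt18 did not pass, both at 0.09. Cardiomyocyte markers were lower in 6 of 19 cases and higher in 2 (median -0.06), with a sum of 178951 to 182528 at 12 h and 182928 to 190014 at 1 h.

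Of 15 fibroblast markers, 6 were lower and 1 higher (median -0.09), with Pdgfra, the receptor for platelet-derived growth factor, at -0.57, and of 12 smooth muscle and pericyte markers 4 were lower and 0 higher (median -0.13). The summed intensities overlapped, at 71636 to 75840 at 12 h and 75068 to 77566 at 1 h for fibroblasts, and at 12465 to 13564 at 12 h and 12950 to 13866 at 1 h for smooth muscle and pericytes. Of 15 macrophage markers 3 were lower and 0 higher (median -0.07), of 8 Schwann and neural crest markers 2 were lower and 0 higher (median -0.03), and of 6 erythroid markers none passed (median -0.10). The part of these cells in the differences of Vcam1, Cxcl12, Igfbp3, Agtr1a and the other genes was not tested.

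**Figure D5:**
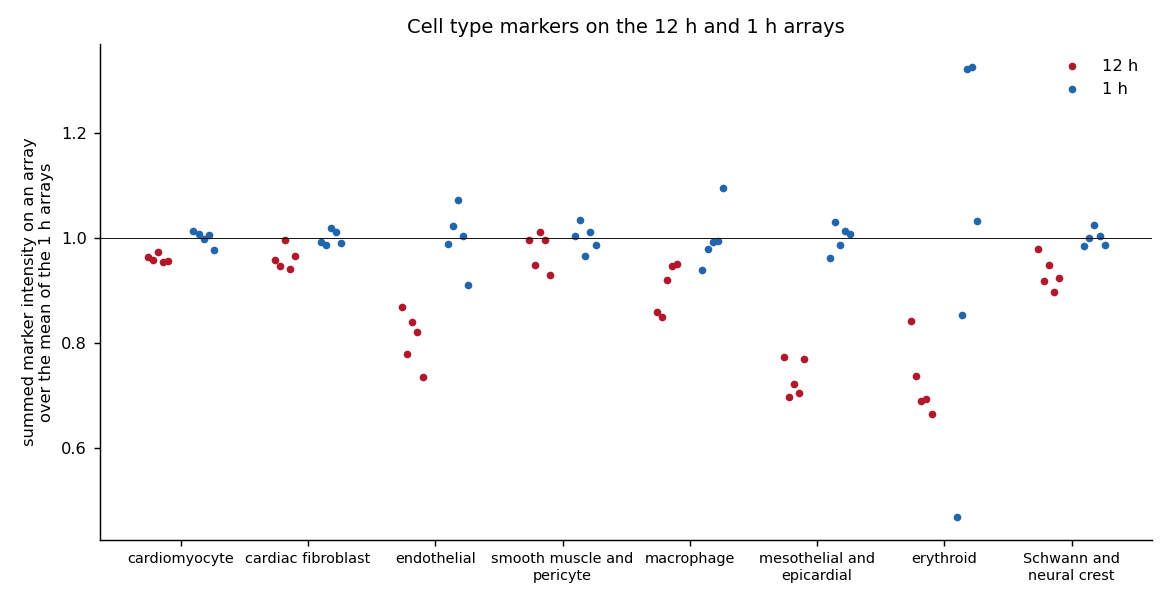
Summed intensity of the markers of 8 cell types on each array (points), divided by the mean of the 1 h arrays, for 12 h (red) and 1 h (blue), n = 5 each. The 12 h arrays lie below all 1 h arrays for endothelial (ratio of means 0.808), mesothelial and epicardial (0.733), cardiomyocyte (0.962) and Schwann and neural crest (0.933) markers, and the other 4 overlap.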

How the data were processed

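RNA of 5 biological replicates per group was hybridised to Affymetrix Rat Genome 230 2.0 arrays. The deposited table holds RMA intensity values on a linear scale, which the authors had background-corrected, quantile-normalised and summarised per probe set, so differences in total RNA between groups are not kept. In the deposited intensities, 471 cells of 427 probe sets held spreadsheet dates. The numbers behind them were restored, and 413 then lay inside the span of the remaining arrays. The intensities were converted to log2, and 57 array control probe sets were left out, leaving 31042. The table's annotation gave 1 gene for 20826 probe sets, several for 436 and none for 9780.

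The 20 arrays of unstretched control, 1 h, 4 h and 12 h were fitted with 1 mean per group in limma 3.58.1 (R 4.3.3), and the contrast of 12 h minus 1 h was tested with empirical Bayes moderation. Two-sided p-values were corrected after Benjamini and Hochberg across all probe sets, with a threshold of 0.05 and fold limits of 1.5 and 2. Each gene was read by the brightest probe set that reads it alone. Tables were handled in Python 3.11.15 with pandas 2.3.3 and numpy 2.4.6. On simulated data with 31042 probe sets, 29 of 50 changes of 1.25-fold, 47 of 50 of 1.5-fold and 50 of 50 of 2-fold were recovered for 12 h against 1 h. Another 6 unaltered probe sets were called. Far fewer probe sets were altered there than were called in the measured data, and the noise was independent between probe sets. The recovered shares therefore need not hold for the measured data.

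Genes named were those with the 15 largest differences in each direction and without overlap between the arrays, members of 27 pathway and 8 cell type lists, the genes of the study's RNA assays, and probe sets without a gene of their own among the largest differences. Some members were named for not passing the test or for their levels at other times, after their values were seen. The members and lists were chosen with earlier results of these data known. Control arrays carry the letter a or b, which was read as belonging to the first or the second set of times. Alternatives were median centring, quantile normalization of the 20 arrays, the 10 arrays alone, a replicate block, the methods' one-way analysis, array weights, a variance trend with robust estimation, a filter on dim probe sets (mean log2 of at least 5), leaving out date cells, the mean of all probe sets of a gene and leaving out each array. A fit without 4 h replicate 5 was added after seeing the data. The arrays of 24 h and 48 h and their controls were not used here. One item is not reported here.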

Additional observations from a re-analysis of the deposited data

Results flagged for a closer look

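The arrays of each group were compared for 44 genes, 88 groups of 5 in all, and in 9 of them 1 array stood apart from the other 4 by a wide gap (Dixon's test). Chance sets about 1 in 20 groups apart. At 12 h, Noct was highest in replicate 4 at a log2 intensity of 8.30 (others 8.24 to 8.26), Fos lowest in replicate 1 at 8.43 (others 8.58 to 8.65) and Flt1 lowest in replicate 5 at 5.71 (others 5.97 to 6.07). At 1 h, Flt1 was highest in replicate 1 at 6.87 (others 6.54 to 6.61) and so was Ptgs2 at 11.15 (others 10.98 to 11.02). Replicate 3 at 1 h was lowest for Abra at 8.65 (others 8.88 to 8.93) and for Inhba at 10.56 (others 10.93 to 10.99). Ddit4l was highest in replicate 5 at 8.03 (others 7.72 to 7.80), and Tgfa lowest in replicate 2 at 6.88 (others 7.01 to 7.04). None of these arrays reached into the range of the other time.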

How the results depend on the processing

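All counts of calls over probe sets and genes stayed within 1.5 times their value under the 10 other settings, the added fit and the 10 fits without 1 array. Of 195 named genes and probe sets, 174 kept their direction and their side of the threshold in every setting. Atp2a2 (-0.12) turned to 0.039 with the mean of all probe sets of a gene. Replicate numbers gave no sign of pairing the arrays. Of 30 same-numbered correlations of deviations, 6 were over 0.1 (median -0.003), and 4 of 20 arrays were closest to their own number. The paper describes stretch times as staggered within each culture, so arrays of different times may share a culture. The labels do not record this, and the main test does not use it. With a replicate block 3416 probe sets were higher and 3065 lower. In that fit calcium handling had 2 members higher, SRF and actin genes 2 higher and Schwann markers 1 lower.

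Some list values moved. With the mean of all probe sets of a gene, medians were -0.392 for immediate early genes, -0.039 for RGS genes, 0.016 for the TGF-beta family, 0.1 for the hexosamine pathway, -0.154 for contractile genes, -0.023 for calcium handling (5 members higher, 5 lower), 0.143 for endoplasmic reticulum chaperones, 0.071 for heat shock genes, 0.121 for FoxO and insulin signaling, -0.005 for the genes of the study's RNA assays, -0.127 for cardiomyocyte and -0.08 for smooth muscle markers. In the same setting 1 contractile, 2 SRF and actin and 1 smooth muscle member were higher, and 1 Schwann marker was lower. Quantile normalization gave 14 lower oxidative phosphorylation genes (median -0.095), 3 higher calcium handling genes, and medians of -0.04 for the extracellular matrix and -0.126 for fibroblast markers. Median centring gave 3 lower fatty acid genes, 5 lower oxidative phosphorylation genes and 1 lower Schwann marker. The 10 arrays alone gave the same 3 counts, with 1 oxidative phosphorylation, 3 calcium handling and 1 smooth muscle gene higher. The methods' one-way analysis had 0 immediate early, 10 glycolysis, 1 contractile, 3 SRF and actin, 1 YAP and 1 smooth muscle gene higher, and 5 heat shock genes lower. A variance trend with robust estimation had 10 glycolysis, 1 contractile, 2 calcium handling, 3 SRF and actin, 1 YAP and 1 smooth muscle gene higher, and 8 fatty acid and 5 heat shock genes lower. Array weights had 1 contractile (median -0.148), 3 calcium handling, 3 SRF and actin, 1 YAP, 1 smooth muscle and 1 macrophage gene higher, and 8 fatty acid, 5 heat shock and 5 BCL2 family genes lower. Without dim probe sets, 1 contractile, 2 calcium handling, 2 SRF and actin, 1 YAP and 1 smooth muscle gene were higher, 8 fatty acid genes were lower, and medians were -0.111 for macrophage, -0.082 for mesothelial and -0.08 for Schwann markers. Without 4 h replicate 5, 3 calcium handling, 2 SRF and actin and 1 macrophage gene were higher. The cause of these shifts was not tested.

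Leaving out 1 array at a time, the genes higher numbered 0 to 1 for immediate early factors, contractile genes, YAP targets, macrophage and smooth muscle markers, 1 to 2 for SRF and actin, calcium handling and cardiomyocyte markers, 1 to 3 for fatty acid and interferon genes (1 without 1 h replicate 4 and without 1 h replicate 1), and 2 to 5 for NF-kB genes (2 without 1 h replicate 3). Genes lower numbered 1 to 2 for ATF4 targets and Schwann markers, 4 to 10 for calcium handling (fewest without 12 h replicate 2, 4 or 5), 3 to 8 for fatty acid genes, 5 to 7 for oxidative phosphorylation, 5 to 8 for the study's RNA assays (fewest without 12 h replicate 2 or 5) and 0 to 2 for erythroid markers (2 without 1 h replicate 1). Medians ran from -0.073 to -0.041 for cardiomyocyte markers, from -0.154 to -0.104 for contractile genes and from -0.111 to -0.057 for macrophage markers. The precision of all these values is limited by the 5 arrays in each group, and a difference that misses the threshold is not shown to be absent.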
